A study of Mus musculus with 4 samples.

Results

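The 6 genes described here carry out the attachment of the ubiquitin-like protein ISG15 to other proteins and its removal. They were taken by name from the full table of expression values, 6 of 21904 gene symbols, and each had 1 transcript cluster, so no choice between clusters was needed. Isg15 encodes the modifier, Uba7 its activating enzyme (E1), Ube2l6 its conjugating enzyme (E2), Herc6 and Trim25 ligases (E3), and Usp18 the protease that removes it. The measurements came from the salivary glands (parotid, sublingual and submandibular, of which a portion went to histology and the rest to RNA extraction) of 4 mice at 20 weeks of age, with 1 whole-transcript array per mouse: 2 mice without IκB-ζ (Nfkbiz-/-, M47 and M49) and 2 of the wild type (Nfkbiz+/+, M30 and M55). Nfkbiz encodes IκB-ζ, a nuclear protein that modulates the transcription of NF-κB target genes, and in the Nfkbiz-/- mice it was deleted in the germline, so that every cell of the gland and of the immune system lacked it. By the methods all mice were female, lived under specific pathogen-free conditions and were kept after weaning only with mice of their own genotype. The methods describe a mixed background that includes C57BL/6, whereas the label of M47 gives the strain as ICR, and the other 3 labels give none.

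ISG15 is made in response to interferon. Like ubiquitin, it is activated by an E1, handed to an E2 and joined by an E3 to lysines of target proteins, many of them newly made. In the mouse, HERC6 is the main ligase. TRIM25 also ubiquitinates the RNA sensor RIG-I, and USP18 both removes ISG15 and, independently of that activity, binds the interferon receptor subunit IFNAR2 and damps its signaling. All 6 genes are known as interferon-stimulated genes. They are transcribed through a factor that contains STAT2 and IRF9 and binds the interferon-stimulated response element, a repeat of GAAA separated by a pair of bases.

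The 250 bases before the transcription start were found for 5 of the 6 genes among the RefSeq promoter windows of GRCm38.p6, and they were searched on both strands for the core of that element, GAAA and GAAA around any 2 bases, and for an extended arm, AAA and GAAACT around any 2 bases. The letters of both searches were chosen after these windows had been seen. The core was found in 2.98% and the arm in 0.551% of 32851 windows of the same length. Isg15 held 3 overlapping matches to the core, which began 78, 72 and 66 bases before the start, and Uba7 held 1 match to the arm on the other strand, 29 bases before the start. Neither was found in the windows of Herc6, Trim25 and Ube2l6, and a κB-like sequence, GGGA and TTTCC around any 1 base, found in 0.356% of windows, was in none of the 5. The windows of Uba7 and Trim25 run past the cluster starts of the deposited annotation, 107975505 and 88999376. On those coordinates the match of Uba7 lies inside its cluster. The windows of Isg15 (chr4:156200819-156201068, minus strand) and Uba7 (chr9:107975317-107975566, plus strand) are printed 5′ to 3′ with the matches in capitals, followed by those of Herc6 (chr6:57580742-57580991, plus strand) and Trim25 (chr11:88999153-88999402, plus strand), the ligase genes compared with them in the results.
Isg15: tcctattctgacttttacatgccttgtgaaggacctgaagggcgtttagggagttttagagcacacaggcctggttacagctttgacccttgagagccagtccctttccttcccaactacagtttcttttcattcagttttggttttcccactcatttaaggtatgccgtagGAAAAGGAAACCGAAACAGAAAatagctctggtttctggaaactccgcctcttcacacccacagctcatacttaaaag
Uba7: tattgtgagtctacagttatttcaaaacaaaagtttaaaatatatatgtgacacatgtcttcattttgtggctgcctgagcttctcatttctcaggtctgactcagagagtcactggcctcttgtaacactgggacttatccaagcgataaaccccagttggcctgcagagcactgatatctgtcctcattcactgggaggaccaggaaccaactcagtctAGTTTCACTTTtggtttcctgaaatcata
Herc6: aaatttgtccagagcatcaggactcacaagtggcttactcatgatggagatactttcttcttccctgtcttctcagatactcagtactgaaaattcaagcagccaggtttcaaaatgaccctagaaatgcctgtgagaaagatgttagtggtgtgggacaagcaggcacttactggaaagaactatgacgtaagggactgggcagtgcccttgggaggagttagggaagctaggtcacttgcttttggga
Trim25: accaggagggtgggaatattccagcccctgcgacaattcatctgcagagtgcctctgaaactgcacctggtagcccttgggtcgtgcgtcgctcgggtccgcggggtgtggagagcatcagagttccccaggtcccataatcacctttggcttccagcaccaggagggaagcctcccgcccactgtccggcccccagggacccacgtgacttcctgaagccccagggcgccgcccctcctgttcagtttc

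The authors had background-corrected, quantile-normalized and summarized the arrays by RMA, and the deposited log2 values were used as they stood. The lower quartile of all values was 3.44 to 3.53 in the 4 arrays and the median 4.83 to 4.89, and these mark where dim clusters begin. Pearson's r over all 22206 clusters, genes not being independent replicates, was 0.981 between the Nfkbiz-/- mice and 0.971 between the Nfkbiz+/+ mice. Between mice of different genotype it was 0.969 to 0.974, a range that holds the value of the Nfkbiz+/+ pair. M55 stood apart in fat and muscle genes, as in Fabp4, a fat cell fatty acid carrier, at 7.75 against 3.55 to 4.14 in the other 3 mice, and in Myh4, a myosin of fast muscle, at 6.95 against 2.05 to 2.47. M55 was also low in Smr3a, an acinar gene, at 10.1 against 12.9 in each of the other mice. The acinar genes Aqp5 (9.77 in M55 against 9.10 to 9.57) and Bhlha15 (9.30 against 8.95 to 9.34) were not low in it. The summed linear level of the 4 acinar genes measured was 9921 in M55 against 18524 to 18925. That sum is set mostly by the bright genes Smr3a and Bpifa2. The acinar gene Bpifa2 was at 12.8 to 13.3 and the ductal kallikrein Klk1 at 12.8 to 13.2 in the 4 mice. Nfkbiz itself was at 6.18 (M47) and 5.78 (M49) against 5.04 (M30) and 7.29 (M55), with overlapping genotypes. The sources do not say which exons its probes cover, and it is therefore no check of the labels.

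A cluster was called higher or lower at the study's thresholds, a fold change of 1.5 or more together with a p under 0.05 before adjustment, which limma supplied here. At these thresholds both ligase genes and the protease gene were higher in Nfkbiz-/- glands, by 2.05-fold for Herc6, 2.02-fold for Trim25 and 3.19-fold for Usp18. The modifier gene Isg15, 1.56-fold higher, fell just short of the p threshold, and the E1 and E2 genes, 1.18-fold and 1.30-fold higher, missed both. Thus 3 of 6 members were called higher and none lower, where 2.93% of all 22206 clusters were called higher and 3.69% lower (6.62% in all). In place of limma, the methods' t-test called Trim25 and Usp18 with equal variances, a form that called 1.02% of all clusters higher, and Usp18 alone with unequal variances, a form that called 0.482% higher. The median log2 fold change was 0.83 over the 6 genes and −0.02 over all clusters. In all 6 genes both Nfkbiz-/- values lay above both Nfkbiz+/+ values, which was true of 18.2% of all clusters. With 2 mice against 2, the exact two-sided permutation test gave p = 0.333 for each member, the smallest p this design allows. After Benjamini-Hochberg adjustment over all clusters no member passed: the adjusted p from limma was 0.468 for Usp18, Trim25 and Herc6, 0.55 for Isg15, 0.646 for Ube2l6 and 0.778 for Uba7. Over all clusters limma gave 0 with an adjusted p under 0.05 and 2015 with an unadjusted p under 0.05, and the methods' t-test gave 2 and 1567 with equal variances and 1 and 737 with unequal variances.

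**Figure D1:**
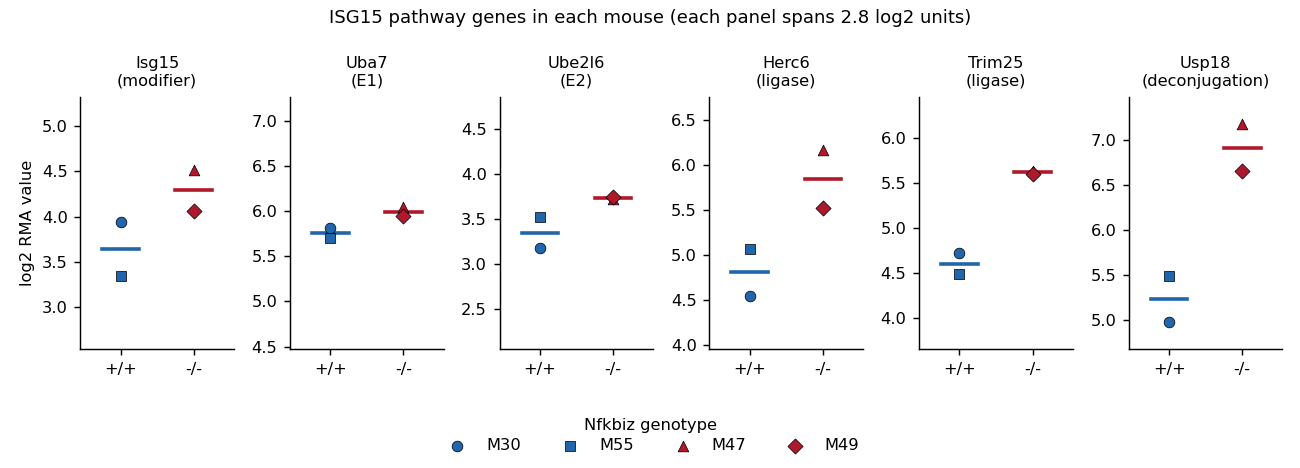
Log2 RMA values (vertical axis) of the 6 ISG15 pathway genes in each Nfkbiz+/+ (blue) and Nfkbiz-/- (red) mouse, with a bar at the mean of each genotype. Both Nfkbiz-/- mice lie above both Nfkbiz+/+ mice in every panel, and the means are farthest apart for Usp18 and closest for Uba7.

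Isg15, on chromosome 4 from 156199424 to 156200818 (minus strand) in the deposited annotation, had log2 values of 4.51 (M47) and 4.07 (M49) in Nfkbiz-/- mice and of 3.94 (M30) and 3.35 (M55) in Nfkbiz+/+ mice. M49 and M30 thus lay closer to each other than either did to the second mouse of its own genotype, and M55 lay below the lower quartile of its array. The means, 4.29 ± 0.32 (SD, n = 2) without IκB-ζ and 3.64 ± 0.42 (SD, n = 2) with it, gave a log2 fold change of 0.65 (SE 0.28, 95% interval −0.00045 to 1.29). It turned on single mice: the log2 fold change was 0.35 without M55 and 0.42 without M47, neither called, and 0.94 without M30 and 0.87 without M49, both called. Isg15 was also called after a further quantile normalization, with the arrays centred on their medians and with 1 cluster per gene in the fit.

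Uba7, whose product activates ISG15 at the head of the cascade, lies on chromosome 9 from 107975505 to 107984060 (plus strand). Its log2 value was 6.04 (M47) and 5.95 (M49) against 5.81 (M30) and 5.70 (M55). The 4 values spanned the narrowest range of the 6 genes, and the genotypes, though they did not overlap, were close. The log2 fold change was 0.24 (SE 0.20), and its 95% interval of −0.23 to 0.71 held both no change and a fold change above 1.5. Ube2l6, which carries activated ISG15 to the ligases, lies on chromosome 2 from 84798828 to 84810335 (plus strand) and was at 3.73 (M47) and 3.74 (M49) against 3.18 (M30) and 3.52 (M55). All 4 values were dim, near the lower quartile of the arrays, and M30 lay below it. The log2 fold change of Ube2l6 was 0.38 (SE 0.22, 95% interval −0.13 to 0.89). It was 0.21 without M30 and 0.56 without M55. These intervals do not show that the E1 and E2 transcripts were alike in both genotypes.

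The ligase genes were higher in both Nfkbiz-/- mice. Herc6, on chromosome 6 from 57580992 to 57665136 (plus strand), had a log2 value of 6.16 (M47) and 5.52 (M49) against 4.55 (M30) and 5.06 (M55). Each genotype was spread widely, by 0.64 between the Nfkbiz-/- mice and 0.52 between the Nfkbiz+/+ mice, and M49 and M55 were only a little apart. The log2 fold change was 1.04 (SE 0.29, 95% interval 0.36 to 1.72). Herc6 was no longer called without M47 (0.72) or without M30 (0.78), or by either form of the methods' t-test. Trim25, on chromosome 11 from 88999376 to 89020293 (plus strand), was at 5.63 (M47) and 5.61 (M49) against 4.72 (M30) and 4.49 (M55). The Nfkbiz-/- mice were nearly equal, and both stood well clear of the Nfkbiz+/+ mice. Its log2 fold change of 1.01 (SE 0.21, a 95% interval of 1.44 to 2.83 on the fold scale) stayed from 0.90 to 1.13 whichever mouse was left out, and it was called each time, though not by the methods' t-test with unequal variances.

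Usp18, the protease gene, lies on chromosome 6 from 121245906 to 121270917 (plus strand), far from Herc6 on the same chromosome. The log2 values were 7.18 (M47) and 6.65 (M49) against 4.99 (M30) and 5.50 (M55), so that even the lower Nfkbiz-/- mouse stood above the higher Nfkbiz+/+ mouse by more than the spread within either genotype. The log2 fold change of 1.67 (SE 0.27, 95% interval 1.04 to 2.31) was the largest of the 6. With any 1 mouse left out it was 1.41 to 1.94. Usp18 was the only member called under every alternative tried, both forms of the methods' t-test included, and in limma its unadjusted p ranked 14 of 22206 clusters.

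**Figure D2:**
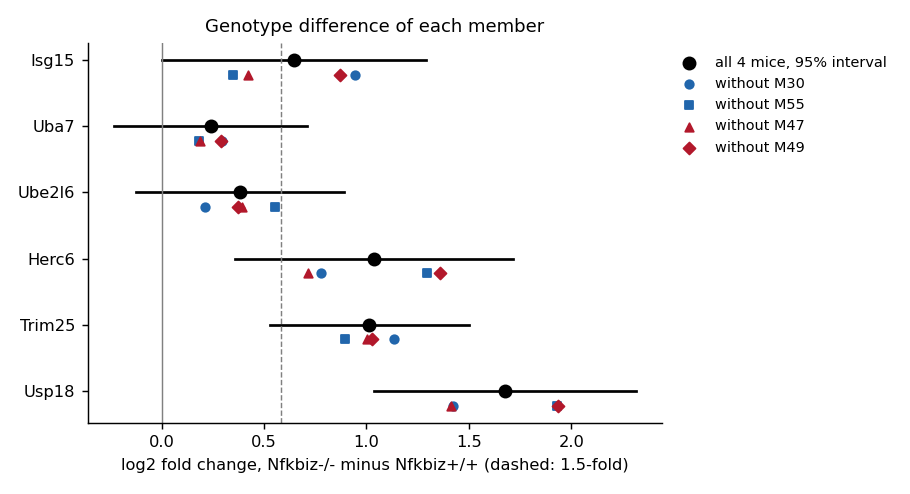
Log2 fold change (horizontal axis) of each member, Nfkbiz-/- minus Nfkbiz+/+, with the 95% interval from limma over 4 mice (black) and the estimate without each mouse (coloured, offset downward). Usp18, Trim25 and Herc6 stay to the right of the dashed 1.5-fold line whichever mouse is left out, whereas the estimates of Isg15 lie on both sides of it.

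Within each array the difference between the log2 values of Usp18 and Isg15 depends on how bright their probes are. Its change between mice shows whether the array values of the protease and modifier genes moved unequally. Isg15, with M55 below the lower quartile of its array, and Ube2l6 were dim. Unequal array values of these genes need not mean unequal changes of the transcripts. The difference was computed for each mouse. It was 2.66 (M47) and 2.59 (M49) against 1.04 (M30) and 2.15 (M55). The Nfkbiz-/- mice were close together and above both Nfkbiz+/+ mice, which were far apart. The mean was 2.63 ± 0.05 (SD, n = 2) against a mean with an SD of 0.78 (n = 2) in Nfkbiz+/+ mice, a difference of 1.03 (exact permutation test, two-sided, p = 0.333, the smallest possible). Set against the mean of the other 5 members in the same array, Usp18 had a difference of 1.01 between Nfkbiz-/- and Nfkbiz+/+ mice, Uba7 of −0.71 and Ube2l6 of −0.54, each without overlap between genotypes (exact permutation test, p = 0.333 each). For Isg15 (−0.22), Herc6 (0.25) and Trim25 (0.22) these within-array values overlapped between genotypes. The mean differences follow from the fold changes of the members given above and are not separate results. A large rise of Usp18 by itself lowers the value of each other member. Among 7 such ratios the smallest p possible was 0.333, so none could pass a test.

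By mouse, M47 had the highest value of 5 of the 6 members and M49 that of Ube2l6. The lowest value fell to M55 for Isg15, Uba7 and Trim25, and to M30 for Ube2l6, Herc6 and Usp18. Averaged over the 6 members after centring each on its 4 values, the mice stood at 0.56 (M47), 0.27 (M49), −0.45 (M30) and −0.38 (M55) on the log2 scale. The members thus separated the genotypes together but did not rank the Nfkbiz+/+ mice alike. The 5 other genes with the smallest root mean square distance from this mean profile over the 4 arrays were H2-L, of the MHC class I region (distance 0.040), Gm4763 (0.041), Rasgrp1, an activator of Ras in lymphocytes (0.056), Mpeg1, which encodes the macrophage protein perforin-2 (0.057), and Gm13275 (0.057). The members themselves lay at 0.17 to 0.46 from it, and the median over all clusters was 0.48. H2-L was at 9.41 (M47) and 9.11 (M49) against 8.41 (M30) and 8.56 (M55), and Mpeg1 at 6.26, 5.83, 5.20 and 5.32 in the same order. Gm4763 and Gm13275 were below the lower quartile in all 4 arrays. These genes were picked for their pattern, so no test applies to it.

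**Figure D3:**
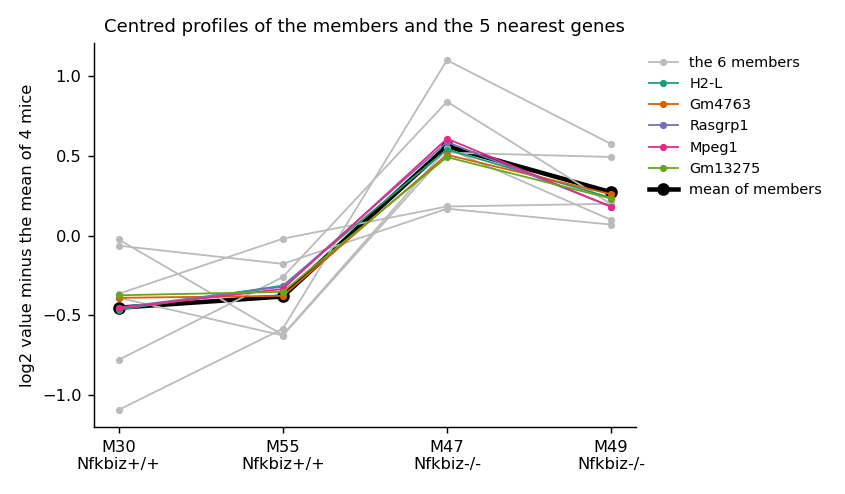
Log2 values minus the mean of the 4 mice (vertical axis) in each mouse for the 6 members (grey), their mean (black) and the 5 genes nearest to that mean (coloured). The mean stands at −0.45 in M30, −0.38 in M55, 0.56 in M47 and 0.27 in M49.

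The ISG15 genes have close relatives in the pathways of ubiquitin and other modifiers, and 36 of these were examined side by side with them. None of the 36 was called higher and 4 were called lower, beside 3.69% of all clusters, with a list median of −0.27 on the log2 fold change scale. Uba1, the E1 of ubiquitin, was at 8.91 (M47) and 8.82 (M49) against 8.84 (M30) and 8.95 (M55), a log2 fold change of −0.03 (SE 0.20, 95% interval −0.51 to 0.44). Ube2l3, the E2 most like Ube2l6, had −0.34 (SE 0.20, interval −0.81 to 0.12), and the HERC ligase genes Herc3 and Herc4 had 0.17 and 0.10 with intervals that held 0. The genes called lower were Nae1 (−0.98), a subunit of the NEDD8-activating enzyme, Fau (−0.78) and Rps27a (−0.71), which encode a ubiquitin-like protein and ubiquitin each fused to a ribosomal protein, and Ufc1 (−0.75), the E2 of the modifier UFM1. Sumo2, −0.57, fell short of the fold threshold, and Ube2d3, −0.58, of both thresholds. These calls were not steady. Without M47 only Fau was still called, without M55 Fau and Nae1 were, and without M30 the count was 8. Rps27a had −0.43 without M55. Whether any member differed in its change from its counterpart was not tested, and the intervals of Uba7 and Uba1, Ube2l6 and Ube2l3, and Herc6 and both HERC genes overlap.

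**Figure D4:**
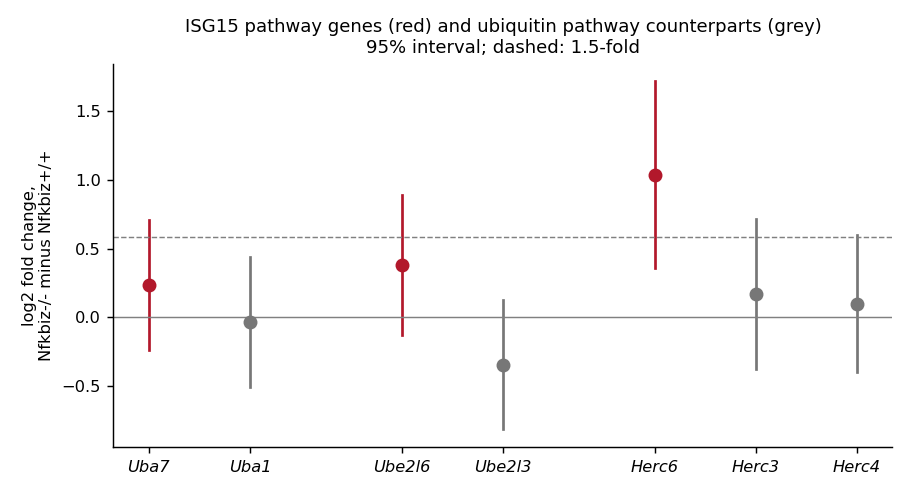
Log2 fold change (vertical axis), Nfkbiz-/- minus Nfkbiz+/+, of 3 ISG15 pathway genes (red) beside counterparts of the ubiquitin pathway (grey), with 95% intervals from limma. Each counterpart has a lower estimate than the ISG15 gene to its left, and every counterpart interval holds 0.

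Proteins reported to carry ISG15 were examined next, as 15 genes. Of these, 3 were called higher, beside 2.93% of all clusters, and 1 lower, with a median of 0.07. Those higher are themselves interferon-stimulated genes: Eif2ak2, the RNA-activated kinase PKR (1.22, SE 0.20), Ddx58, which encodes RIG-I (0.90, SE 0.24), and Ifit1, which binds viral RNA (0.87, SE 0.26). Eif2ak2 was at 7.60 (M47) and 7.48 (M49) against 6.38 (M30) and 6.24 (M55), with no overlap and little spread within a genotype. Ube2e1, a ubiquitin E2, was lower (−0.75, SE 0.24), but not without M49 (−0.62) or M55 (−0.53), and Ifit1 was not called without M47 (0.54). Mx1, an antiviral GTPase, had 0.44 (SE 0.27) with overlapping genotypes, and the remaining 10, among them Irf3 and Jak1, had values between −0.25 and 0.25. Of 7 partners of TRIM25, Ddx58 alone was called, beside 6.62% of all clusters called higher or lower. Rnf135, which encodes the RIG-I ligase RIPLET, had 0.17 (SE 0.20). Mavs, the adaptor below RIG-I, had 0.20 (SE 0.22) and Zc3hav1, the antiviral RNA-binding protein ZAP, 0.45 (SE 0.26). Esr1, the estrogen receptor, for which Trim25 was first described as a target, had −0.46 (SE 0.23) and was called lower without M55 (−0.66), as Zc3hav1 was called higher without M30 (0.71).

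**Figure D5:**
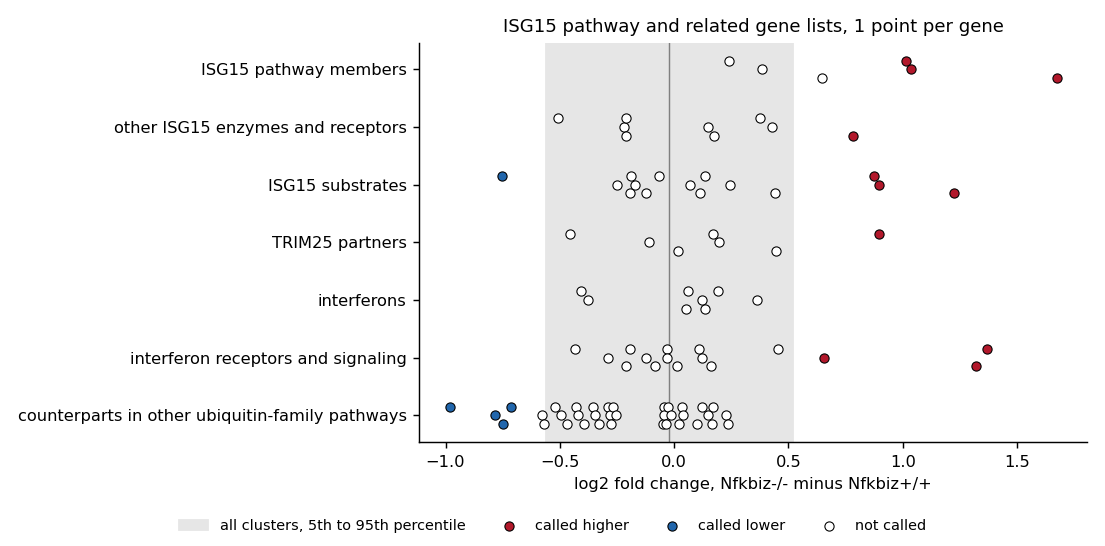
Log2 fold change (horizontal axis), Nfkbiz-/- minus Nfkbiz+/+, of each gene in 7 lists (1 point per gene, red called higher, blue called lower, white not called) over the range from the 5th to the 95th percentile of all clusters (grey band, −0.56 to 0.52). Of the members, Isg15, Herc6, Trim25 and Usp18 lie to the right of the band.

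Another 9 genes of ISG15 handling include Arih1, a further ligase, proteases shown in vitro to act on ISG15, and the chains of LFA-1. LFA-1 is the surface receptor for free ISG15. Of these 9 genes 1 was called, beside 6.62% of all clusters called higher or lower. It was Itgb2, the beta chain of LFA-1 and of other leukocyte integrins (0.78, SE 0.28), at 4.84 (M47) and 4.08 (M49) against 3.65 (M30) and 3.71 (M55). Its partner Itgal had 0.37 (SE 0.34) with overlapping genotypes. Of the proteases, Usp21 had 0.43 (SE 0.20) and Usp2 −0.51 (SE 0.25), neither called. Itgb2 was not called without M47 (0.40), M30 (0.76) or M55 (0.81).

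Upstream of the pathway, none of 8 interferon genes was called by limma, beside 6.62% of all clusters called higher or lower. Ifnk and Ifng, like Ifna4, were below the lower quartile in all 4 arrays, and Ifna2 was below it in 2. For such dim genes the lack of a call does not show that the level was unchanged. Ifnb1, the beta interferon gene, was at 5.02 (M47) and 5.19 (M49) against 4.99 (M30) and 4.98 (M55) (log2 fold change 0.12, SE 0.20), Ifna2 had 0.36 (SE 0.20), Ifne −0.38 (SE 0.25) and Ifna4, below the lower quartile in all arrays, −0.41 (SE 0.23). Without M30 Ifna4 was called lower (−0.65), and without M55 Ifne was (−0.67). Of 16 genes of interferon receptors and signaling, 3 were called higher, beside 2.93% of all clusters, and none lower. These were Stat2 (1.32, SE 0.22) and Irf9 (0.65, SE 0.21), which act together in one transcription factor, and Irf7, which drives interferon transcription (1.37, SE 0.39). Irf7 was at 6.72 (M47) and 5.71 (M49) against 5.27 (M30) and 4.42 (M55), the order of mice also seen in Isg15, Uba7 and Trim25. It was not called without M47 (0.86) or M55 (0.94), nor was Irf9 without M47 (0.52). Irf1, a further interferon-induced factor, was at 7.29 (M47) and 7.15 (M49) against 6.21 (M30) and 8.30 (M55). It had −0.03 (SE 0.58), but was called higher without M55 (1.01) and lower without M30 (−1.08), so that its direction rested on which Nfkbiz+/+ mouse was kept. The receptor genes Ifnar1 (−0.21, SE 0.24) and Ifnar2 (0.16, SE 0.20), the latter encoding the subunit that USP18 binds, were not called. The largest changes among the genes not called were those of Tyk2 (0.46, SE 0.26), Ifngr2 (−0.44, SE 0.31) and Socs1 (−0.29, SE 0.21).

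Leukocyte genes moved with these results in part. Of 4 macrophage genes, Cd68 (1.13, SE 0.41) and the complement gene C1qa (0.96, SE 0.26) were called higher, beside 2.93% of all clusters. Cd68 was not called without M47 (0.93) or M30 (0.47). Csf1r, the receptor of a macrophage growth factor, had 0.44 (SE 0.22), and Adgre1, a surface marker of macrophages, had −0.47 (SE 0.28) with overlapping genotypes. The summed level of the 4 macrophage genes, on the linear scale, was 260 and 278 in the Nfkbiz-/- mice and 137 and 215 in the Nfkbiz+/+ mice. None of 4 T cell, 3 B cell, 3 plasmacytoid dendritic cell or 3 neutrophil genes was called by limma, beside 6.62% of all clusters. The T cell median was 0.385 and the B cell median 0.52 on the log2 fold change scale. The T cell gene Cd3e was at 10.2 (M47) and 7.28 (M49) against 4.65 (M30) and 8.92 (M55) (1.98, SE 1.35). The other T cell genes varied far less over the 4 mice, Cd3d from 3.33 to 3.67, Cd8a from 3.59 to 4.26 and Cd4 from 6.57 to 7.27. Cd3d was below the lower quartile in 2 arrays. Cd3e alone is therefore no measure of T cells in these glands. Both Nfkbiz-/- values lay above both Nfkbiz+/+ values in 3 T cell genes and 1 B cell gene, beside 18.2% of all clusters. Of the plasmacytoid genes, Siglech was at 4.13 and 4.23 against 4.51 and 4.27, and Pacsin1 had 0.19. Ccr9, Pacsin1 and the neutrophil genes S100a8 and Ly6g were below the lower quartile in all 4 arrays. The 3 hemoglobin genes of red cells were called lower, beside 3.69% of all clusters, with log2 fold changes of −3.94 to −3.09. The fat cell genes Fabp4 (−2.38, SE 0.95) and Car3 (−2.12, SE 0.73) and the muscle myosin gene Myh8 (−2.08, SE 0.60) were called lower too. With M55 left out, Fabp4 had −0.57 and was no longer called, while Car3 (−0.76) and Myh8 (−0.99) still were. The part of these marker genes in the differences of the ISG15 genes was not tested. In whole glands, more cells that express a gene and more RNA per cell cannot be told apart.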

How the data were processed

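RNA from 1 salivary gland sample of each of 4 separate mice was hybridised to whole-transcript arrays. The authors summarised and normalized the probe intensities by RMA in Affymetrix Power Tools, and the deposited log2 values were tested without change; both deposited tables held the same values (0 differed). The deposited columns of the authors' own fold changes and p-values and their tables of enriched terms were not used. The genotype difference was fitted with limma 3.58.1 in R 4.3.3 over 22206 transcript clusters with no filter or covariate (2 residual and 5.53 prior degrees of freedom) and adjusted by Benjamini-Hochberg. The procedure was tested on simulated data. The number of arrays, 2 per genotype, limits the precision.

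The members and gene lists were chosen with earlier results of these data known; some genes of these lists are not reported here and are left out of the counts. Named were all 6 members, every called gene and up to 3 others with the largest changes in each list, preset counterparts, the 5 genes nearest in profile, called markers and Nfkbiz. Further genes, such as Irf1, Ifnar1 and Ifnar2, and some uncalled markers were named outside this rule. Alternatives were both forms of the methods' independent t-test, an intensity trend, 2 further normalizations, a filter on dim clusters, 1 cluster per gene, a 2-fold threshold, the second table and leaving out each mouse. The sources used here name no version of the array annotation. All 6 member clusters overlapped their RefSeq gene in GRCm38.p6, and 3 had identical ends.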

Additional observations from a re-analysis of the deposited data

How the results depend on the processing

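No alternative reversed the direction of a member. Over all clusters, 651 were called higher and 820 lower, but higher calls were the more numerous at 2-fold (130 and 70), by the t-test with unequal variances (107 and 105), without M49 (592 and 537) and without M55 (1024 and 959). In place of 1471 clusters called, the t-test called 475 with equal and 212 with unequal variances, clusters above the median signal gave 901, a 2-fold threshold gave 200, and leaving out 1 mouse gave 1122 to 2690. The 3 members called became 1 by the t-test with unequal variances and 2 to 4 without 1 mouse: 2 without M47 (Herc6 lost) and 4 without M49 (Isg15 added), while without M30 Isg15 replaced Herc6. The 1 call among other ISG15 enzymes and receptors became 0 by both t-tests, above the median signal and at 2-fold, and 0 to 2 without 1 mouse. The 4 calls among substrates became 1 by either t-test and at 2-fold, and 3 to 4 without 1 mouse. The 1 call among TRIM25 partners became 0 by both t-tests and at 2-fold, and 1 to 2 without 1 mouse. The 4 calls among counterparts became 1 with equal variances, 0 with unequal variances and at 2-fold, and 1 to 8 without 1 mouse. The 0 calls among interferons became 0 to 1 without 1 mouse. The 3 calls among receptors and signaling became 0 with unequal variances, and 1 to 5 without 1 mouse (1 without M47, 5 without M30). The cause was not tested, except that a higher fold threshold and the filter on dim clusters retain fewer clusters by construction.

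No member had an adjusted p under 0.05 in any setting; the lowest adjusted p of a member ranged from 0.236 without M30 to 0.968 without M47 (limma). Isg15 and Ube2l6 lay below the median signal and gave no value with that filter, and no member had another transcript cluster to try. No paired analysis was possible because the mouse numbers are not shared between the genotypes. With 2 mice per genotype, a change smaller than the intervals given could not be detected, and dim clusters such as Ube2l6 lie near the lower quartile of the arrays.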
